A study of Homo sapiens with 12 samples.

Results

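The genes described here are 6 of the DNA mismatch repair genes, chosen by symbol: MSH6, MSH3, PMS2, PMS1, MLH3 and EXO1. They are 6 of 46350 named genes in the count files. All 6 had counts in all 12 libraries and passed the filter on low counts in both fits. The fewest counts for a member in 1 library were 10, for MSH3, and the most were 2958, for MSH6.

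RNA was sequenced from SKOV3, an established human ovarian cancer line labelled cisplatin-sensitive, and from SKOV3/DDP, labelled cisplatin-resistant, which the study's methods describe as a stable chemoresistant line made from SKOV3. Each line was left untreated or given paeonol (PAE), a phenolic compound of peony root, for 4 groups of 3 libraries. No other allele or agent and no dose or exposure time is given in the labels. The column headers of the treated libraries carry 1.5P in SKOV3 and 2.4P in SKOV3/DDP, whose meaning is not given, so the same dose in both lines cannot be assumed. The study's methods state in general that experiments were repeated independently, but the labels do not tie a library to a culture, so p-values measure the spread between these libraries, which may be technical.

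Mismatch repair removes bases that DNA polymerase has misincorporated and the small loops left when it slips on repeats. A MutS dimer finds the mismatch. MSH6, in MutSα, serves base mismatches and the shortest loops, and MSH3, in MutSβ, serves longer loops, each bound to a common partner that is not analysed here. A MutL dimer is then recruited. PMS2, in MutLα, carries the nicking activity of the main dimer, while PMS1 and MLH3 are the alternative subunits of MutLβ and MutLγ, MLH3 being known above all for meiotic crossing over. EXO1 is the exonuclease that removes the nicked strand. The pathway also recognises cisplatin adducts opposite some bases and signals the damage, and its loss is a known route to cisplatin tolerance, which is the reason to describe these genes in a sensitive and a resistant line.

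On GRCh38, MSH6 lies at chr2:47783145-47806954 on the plus strand, MSH3 at chr5:80654652-80876815 on the plus strand and PMS2 at chr7:5970925-6009106 on the minus strand. PMS1 lies at chr2:189784142-189877629 on the plus strand, MLH3 at chr14:75013764-75051479 on the minus strand and EXO1 at chr1:241847967-241889939 on the plus strand. MSH6 and MLH3 were the members most strongly lower in SKOV3/DDP than in SKOV3 when both had PAE, and no other gene in the files lies over the bases just before their starts, so those bases are shown here from RefSeq on GRCh38.p14. The first runs over chr2:47782895-47783144 and the second over chr14:75051480-75051717, each 5′ to 3′ on the gene's own strand. Capitals mark GC boxes (GGGCGG or its complement) and the CCAAT box (CCAAT or its complement), both strands being searched.
MSH6: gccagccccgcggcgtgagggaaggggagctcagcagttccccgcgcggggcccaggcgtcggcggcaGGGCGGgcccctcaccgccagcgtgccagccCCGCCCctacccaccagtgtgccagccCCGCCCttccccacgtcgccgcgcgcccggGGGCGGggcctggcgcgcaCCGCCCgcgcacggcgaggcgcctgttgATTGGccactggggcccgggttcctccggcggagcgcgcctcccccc
MLH3: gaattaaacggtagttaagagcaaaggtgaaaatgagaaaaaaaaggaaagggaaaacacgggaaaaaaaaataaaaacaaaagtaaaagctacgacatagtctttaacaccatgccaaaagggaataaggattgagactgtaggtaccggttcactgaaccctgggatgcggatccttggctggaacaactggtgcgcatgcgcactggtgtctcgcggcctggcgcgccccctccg
The MSH6 stretch had 81.2% G and C and held 5 GC boxes and 1 CCAAT box, whereas the MLH3 stretch had 46.6% and held neither. Over windows from 250 bases before to 50 after each start, 44.6% of 27305 promoters held a GC box and 35.7% a CCAAT box. E2F-type letters (TTTCCCGC, TTTCGCGC, TTTGCCGC or TTTGGCGC on either strand) stood in 3.33% of promoters, while the windows of MSH6, PMS2 and EXO1 held 1 each and that of MSH3 held 2. Those of PMS1 and MLH3 held 0. The match in MSH6 lies after the start, outside the bases shown, and in PMS2 alone 1 pair of different motifs shared bases. A match is a description of letters and not of a bound site.

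Totals ran from 14610008 to 18263479 counts per library. Untreated SKOV3 had 17951 to 18240 genes with a count and the other groups 21469 to 23194. Mitochondrial genes took 1.29% to 2.44% of counts in SKOV3 with or without PAE, 8.66% to 11.2% in SKOV3/DDP and 3.93% to 8.67% there with PAE. The untreated SKOV3 libraries stood apart in base composition: across 15090 genes, GC content and a library's deviation from the mean of all libraries had a Spearman rho of 0.676 to 0.683 in untreated SKOV3 and of -0.541 to -0.334 in PAE-treated SKOV3, -0.352 to -0.329 in SKOV3/DDP and -0.476 to -0.356 in SKOV3/DDP with PAE. The members are rich in A and T, with 39.9% to 46.2% GC in their longest transcripts against a median of 49.0% over genes tested. Every contrast of a member with untreated SKOV3 is therefore given on the deposited counts and also after subtracting the trend that each library showed over GC content and gene length. The part of this trend in the results was not tested beyond that. Lineage markers differed too. The 5 intestinal epithelial markers (CDX1, CDX2, VIL1, CDH17, LGALS4) summed to 556 to 634 CPM in SKOV3/DDP and 200 to 285 CPM with PAE, but to at most 0.578 CPM in SKOV3, where CDX1, CDX2, VIL1 and CDH17 were at 0, and to at most 0.495 CPM with PAE. The 5 Mullerian and ovarian markers (PAX8, WT1, MUC16, EMX2, SOX17) summed to 16.5 to 23.2 CPM in SKOV3 and 17.9 to 33.6 with PAE. The sums were 3.87 to 6.70 in SKOV3/DDP and 2.08 to 5.29 with PAE. SOX17 was at 0 in every group, WT1 had at most 6 counts in a group and EMX2 at most 1, so PAX8 and MUC16 carried these sums. By edgeR's test at an adjusted p of 0.05, PAX8 was lower (log2 -1.17) and MUC16 higher (1.82) with PAE in SKOV3. Neither was called with the trend removed (0.30 and 0.99). Epithelial markers (EPCAM, KRT8, KRT18, KRT19, CDH1) were detected in every group. They summed to 3017 to 3363 CPM in SKOV3, 833 to 1587 with PAE, 11720 to 12523 in SKOV3/DDP and 2680 to 4000 with PAE. With PAE in SKOV3, KRT8 and KRT18 were lower (log2 -2.59 and -1.63), EPCAM and CDH1 higher (2.32 and 2.82) and KRT19 not called (-0.17). With the trend removed, KRT8 was lower (-0.79), EPCAM, CDH1 and KRT19 were higher (2.01, 2.09 and 2.87) and KRT18 was not called (0.45). EPCAM had 44 counts over the untreated SKOV3 libraries. CD14, a monocyte marker, averaged 67.8 TMM-scaled CPM in SKOV3 and 32.2 with PAE, against 2.70 in SKOV3/DDP and 1.70 with PAE, while the pan-leukocyte marker PTPRC was at 0 in both untreated lines. The sums of fibroblast markers (COL1A1, DCN, PDGFRB, LUM) reached 16.6 CPM. The part of the markers, the mitochondrial share and the number of genes with a count in the results was not tested. In bulk RNA, fewer cells of a type and less RNA per cell cannot be told apart.

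The balance of the MutS subunits differed between the lines. MSH6 exceeded MSH3 in every SKOV3 library, untreated or treated, and MSH3 exceeded MSH6 in every SKOV3/DDP library. With PAE in both lines, where no untreated SKOV3 library is involved, MSH6 was 9.21-fold and MLH3 4.16-fold lower in SKOV3/DDP and PMS2 2.39-fold higher. The headers of the treated libraries differ (1.5P and 2.4P), so the line and a possible dose difference cannot be told apart in this contrast. PAE went with higher counts of all 6 members in SKOV3, where 42.6% of all genes tested were also called higher. Once the GC and length trend was removed, only 3 members were called higher, beside 28.5% of genes. With PAE in SKOV3/DDP no member passed the test on the deposited counts, where 11.8% of genes were called higher and 14.7% lower. With the trend removed, EXO1 was called higher and PMS1 lower in SKOV3/DDP, beside 15.8% and 16.9% of genes.

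**Figure D1:**
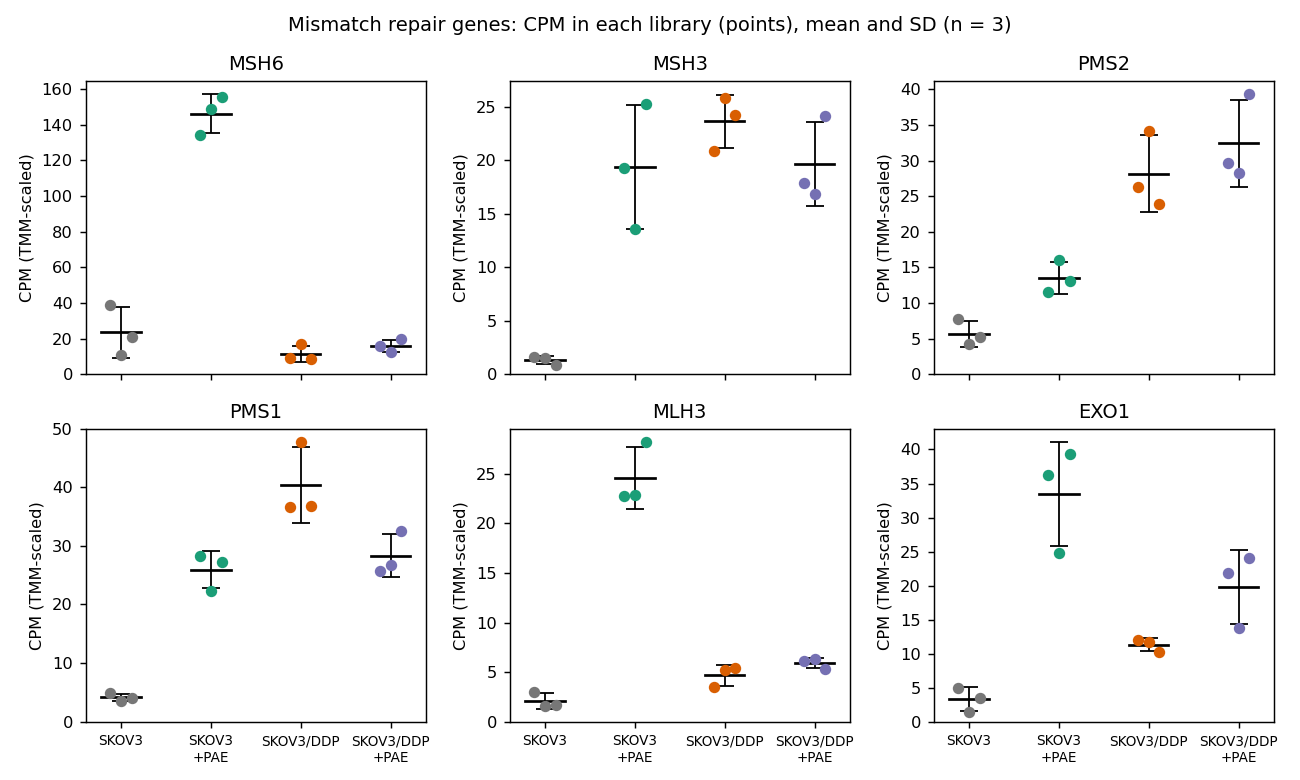
CPM (counts scaled to library size with TMM factors, vertical axis from 0) of the 6 mismatch repair genes in the 4 groups. Points are libraries, bars the mean and SD of 3. MSH6 stands at 134 to 156 CPM in PAE-treated SKOV3 and at most at 38.9 CPM elsewhere, while MSH3 stands at most at 1.60 CPM in untreated SKOV3 and at 13.6 CPM or more in the other groups.

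Untreated SKOV3/DDP was first compared with untreated SKOV3, the contrast of the resistant with the sensitive line. By edgeR's quasi-likelihood test at an adjusted p of 0.05, 5 of the 6 members were higher in SKOV3/DDP and 0 were lower, with MSH6 not called. The background was high: 46.1% of 15323 genes tested were called higher and 38.5% lower. On the log2 scale the members' median fold change was 1.99 and that of all genes tested 0.41. After removal of the GC and length trend, 3 members were higher (MSH3, PMS2, PMS1) and 2 were lower (MSH6, MLH3), against 36.7% of all genes higher and 33.1% lower, and the members' median of 0.14 stood beside 0.12 for all genes. The size and, for MLH3 and EXO1, the direction of these differences thus changed with the correction.

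PAE in SKOV3 was compared next. All 6 members were called higher with PAE and 0 lower, where 42.6% of 17133 genes were called higher and 32.7% lower. The members' median log2 fold change was 2.99 and that of all genes 0.48. With the trend removed, MSH3, MLH3 and EXO1 remained higher and 0 members were lower, beside 28.5% of genes higher and 22% lower, and the members' median was 0.41 beside 0.19.

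In SKOV3/DDP, PAE gave 0 member calls in edgeR, although EXO1 and PMS1 were 2 members with an unadjusted p under 0.05. DESeq2 called 1 member and 5147 of 17133 genes, and limma-voom 0 members and 5184 genes. The background in edgeR was 11.8% of genes higher and 14.7% lower. With the trend removed, EXO1 was called higher and PMS1 lower, against 15.8% and 16.9% of all genes. The members' median log2 fold change was 0.27 on the deposited counts and that of all genes was 0.

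The effect of PAE differed between the lines for all 6 members by the interaction term, each more positive in SKOV3, where 25.5% of genes had a more positive and 37.4% a more negative effect in SKOV3/DDP. Only MSH3 kept this call with the trend removed, beside 19.3% and 23% of all genes. When both lines had PAE, PMS2 was higher in SKOV3/DDP and MSH6 and MLH3 were lower, against 27.5% of genes higher and 27.1% lower. The same 3 members were called in the same directions with the trend removed, and EXO1 was also lower, beside 30.6% and 29.3% of genes. These comparisons share groups: untreated SKOV3 enters the contrast of untreated lines and that of PAE in SKOV3. In the interaction and between the treated lines, a possible dose difference (headers 1.5P and 2.4P) cannot be told apart from the line.

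**Figure D2:**
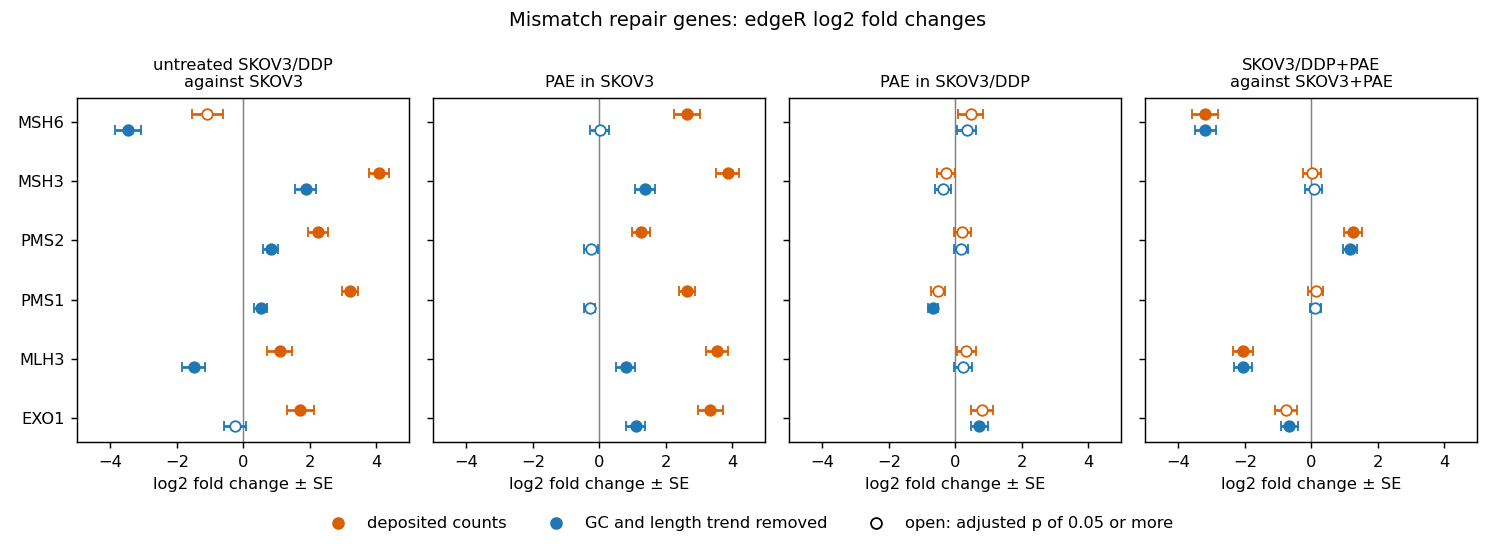
Log2 fold changes ± SE (horizontal axes) of the 6 members in 4 comparisons, on the deposited counts (orange) and with the GC and length trend removed (blue). Filled points have an adjusted p under 0.05. The colours part in the first and second panels, which contain untreated SKOV3, and lie close together in the others, where MSH6 sits at -3.20 and -3.19 in the last panel.

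MSH6 in untreated SKOV3 was measured at 38.9, 10.9 and 20.8 CPM, a mean of 23.5 ± 14.2 (SD, n = 3), the widest relative spread of a member in a group. Untreated SKOV3/DDP had 9.34, 16.7 and 8.39 CPM. These ranges overlapped, and the log2 difference of -1.09 (SE 0.46, adjusted p = 0.0546) was not called. It was called when the GC and length trend was removed (-3.47, SE 0.40, adjusted p = 8.89e-05), by DESeq2 (-1.29, adjusted p = 0.0050), without a filter on low counts (-1.02, adjusted p = 0.0386) and in the fit of all 12 libraries (-1.03, adjusted p = 0.0191). It was also called without SKOV3 replicate 2 (-1.44, adjusted p = 0.0094) or without SKOV3/DDP replicate 2 (-1.42, adjusted p = 0.0207). The difference was -0.54 without SKOV3 replicate 1 (adjusted p = 0.234) and -0.37 with scaling to library size alone, so the direction was the same under these settings but not the size.

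PAE-treated SKOV3 held the highest MSH6 of the study, at 134, 149 and 156 CPM (mean 146 ± 10.8). All 3 exceeded the untreated SKOV3 libraries, and the log2 fold change was 2.64 (SE 0.39, adjusted p = 1.56e-05), a 6.22-fold rise. It was 0.02 with the trend removed (SE 0.29, adjusted p = 0.976). SKOV3/DDP with PAE had 15.7, 12.4 and 19.5 CPM, overlapping untreated SKOV3/DDP, with a log2 difference of 0.47 (SE 0.37, adjusted p = 0.381). Between the treated lines MSH6 was lower in SKOV3/DDP by a log2 value of -3.20 (SE 0.39, adjusted p = 7.54e-06), and of -3.19 with the trend removed. No library of one treated group reached the other. The gene for the F-box protein FBXO11, on the opposite strand, shares 35 bases with MSH6 in the files' coordinates. FBXO11 did not pass the test between the treated lines (log2 -0.44, SE 0.27, adjusted p = 0.193). With PAE in SKOV3 it rose as MSH6 did (log2 3.26, SE 0.30, adjusted p = 1.38e-07), and was not called with the trend removed (0.44, adjusted p = 0.0704). Between the untreated lines FBXO11 was higher in SKOV3/DDP (log2 2.68, SE 0.33, adjusted p = 7.84e-05), and not called with the trend removed (0.11, adjusted p = 0.672).

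MSH3 was close to the floor of counting in untreated SKOV3, with 18, 18 and 10 counts, or 1.60, 1.53 and 0.85 CPM. The 3 untreated SKOV3/DDP libraries had 20.9, 25.8 and 24.2 CPM. No library of either group came near the other. The log2 difference was 4.09 (SE 0.31, adjusted p = 5.23e-06), 17.0-fold, and 1.88 (SE 0.31, adjusted p = 0.000778) with the trend removed. PAE-treated SKOV3 had 19.2, 13.6 and 25.2 CPM, a log2 rise of 3.86 (SE 0.33, adjusted p = 6.91e-08), and of 1.38 (SE 0.29, adjusted p = 0.00151) with the trend removed. MSH3 was therefore higher than in untreated SKOV3 in both contrasts under both treatments of the counts. SKOV3/DDP with PAE had 17.9, 16.8 and 24.1 CPM. The treated lines overlapped, with a log2 difference of 0.02 (SE 0.27, adjusted p = 0.958), and so did SKOV3/DDP with and without PAE (-0.27, SE 0.27, adjusted p = 0.504).

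The balance of MSH3 and MSH6 was taken within each library, where depth and scaling cancel. MSH6 per kilobase of gene length was 22.7, 6.62 and 22.8 times MSH3 in the untreated SKOV3 libraries and 6.51, 10.2 and 5.75 times in the PAE-treated ones. In SKOV3/DDP the order was turned: MSH3 was 2.3995, 1.65 and 3.10 times MSH6 untreated, and 1.22, 1.46 and 1.32 times with PAE. The 2 genes have near-equal length (4771 bases for MSH6 and 4443 for MSH3) and GC content (40.8% and 42.1%). The mean log2 ratio of MSH3 to MSH6 counts was -4.02 ± 1.03 (SD, n = 3) in SKOV3 and 1.10 ± 0.46 in SKOV3/DDP, a difference of 5.12. In the exact 2-sided permutation test this gave p = 0.1, the smallest that 3 against 3 allows, and the difference was 5.36 with the GC and length trend removed. With PAE the ratio was -2.96 ± 0.43 in SKOV3 and 0.31 ± 0.13 in SKOV3/DDP.

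PAE changed this balance less than the line did. In SKOV3 the log2 ratio was 1.06 higher with PAE (1.32 with the trend removed), but the libraries overlapped and the exact permutation p was 0.2. Without SKOV3 replicate 2 the ratio was 1.65 higher. In SKOV3/DDP the change was -0.79, with all 3 treated libraries below the untreated ones (exact permutation p = 0.1, the smallest possible). Neither comparison could reach 0.05 with these numbers.

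**Figure D3:**
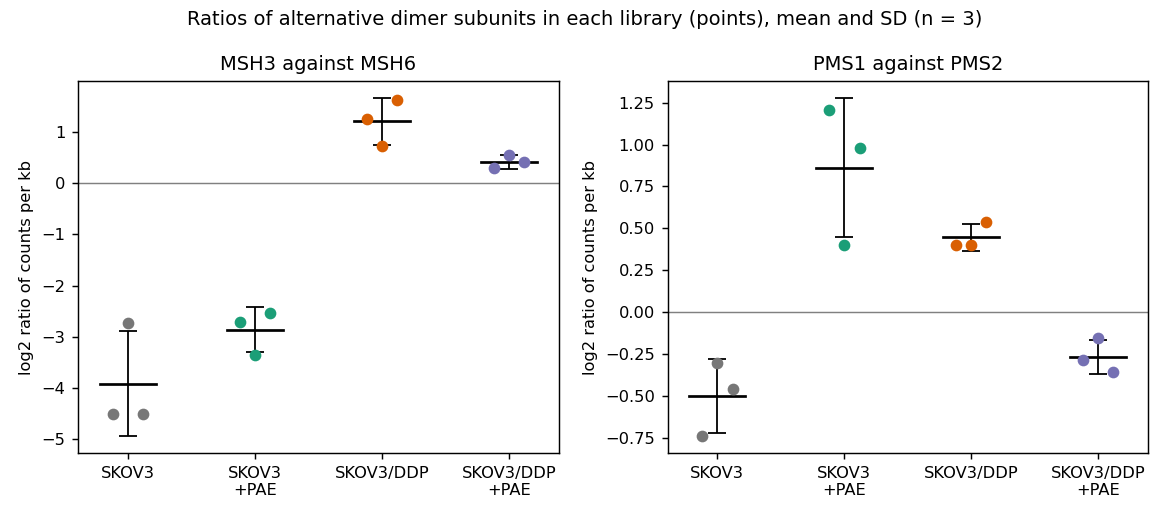
Log2 ratio of counts per kilobase (vertical axes, 0 meaning equal levels) of MSH3 to MSH6 (left) and of PMS1 to PMS2 (right) in each library, with mean and SD of 3. All SKOV3 libraries lie below 0 and all SKOV3/DDP libraries above 0 for MSH3 to MSH6, whereas PMS1 to PMS2 lies above 0 in PAE-treated SKOV3 and untreated SKOV3/DDP only.

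PMS2, the subunit of the main MutL dimer, was lowest in untreated SKOV3 and highest in the SKOV3/DDP groups. It was at 7.72, 4.18 and 5.17 CPM in untreated SKOV3 and at 11.6, 15.997 and 13.0 CPM with PAE. In SKOV3/DDP it was at 26.2, 34.2 and 23.9 CPM untreated and at 29.6, 28.2 and 39.4 CPM with PAE. Every SKOV3/DDP library exceeded every SKOV3 library, and the SKOV3/DDP groups overlapped. Untreated SKOV3/DDP was higher than untreated SKOV3 by a log2 value of 2.25 (SE 0.29, adjusted p = 0.000113), and of 0.83 (SE 0.22, adjusted p = 0.00991) with the trend removed. With PAE in both lines the log2 difference was 1.26 (SE 0.26, adjusted p = 0.000934) and 1.17 with the trend removed. PAE in SKOV3 gave 1.25 (SE 0.27, adjusted p = 0.000696), which turned to -0.25 (SE 0.21, adjusted p = 0.345) with the trend removed, and PAE in SKOV3/DDP gave 0.20 (SE 0.26, adjusted p = 0.601).

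PMS2 has many near-identical pseudogene copies, among which reads may have been divided in counting, so its values are uncertain to that extent. The files hold 12 genes named as copies, of which 5 had a mean of at least 1 CPM (PMS2CL, PMS2P1, PMS2P3, PMS2P4 and PMS2P5). PMS2CL, a transcribed copy, was higher in SKOV3/DDP as PMS2 was: its log2 difference was 2.17 (SE 0.31, adjusted p = 0.000211) between the untreated lines and 0.87 (SE 0.32, adjusted p = 0.0301) between the treated lines. Removal of the trend left it at 2.50 (adjusted p = 0.000132) and 1.04 (adjusted p = 0.0104). With PAE in SKOV3, PMS2CL was higher too (log2 1.77, SE 0.35, adjusted p = 0.000278). It differed from PMS2 there with the trend removed, being still called (1.90, adjusted p = 0.000443) where PMS2 was not (-0.25). PMS2P1 went the other way between the untreated lines (log2 -1.55, SE 0.26, adjusted p = 0.000475). PMS2P3 and PMS2P4 were also lower there (log2 -1.66, adjusted p = 0.00273, and -1.28, adjusted p = 0.0303), and PMS2P5 was not called (0.47, adjusted p = 0.408). After removal of the trend PMS2P3 and PMS2P4 turned direction and were not called (0.77, adjusted p = 0.0765, and 0.99, adjusted p = 0.0739). PMS2P1 and PMS2P5 had no GC value and so no such fit.

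PMS1, the alternative MutL subunit whose part in human mismatch repair is minor, was at 4.88, 3.58 and 3.98 CPM in untreated SKOV3. PAE-treated SKOV3 had 28.2, 22.3 and 27.2 CPM, and untreated SKOV3/DDP 36.6, 47.8 and 36.7 CPM. Both groups lay wholly above untreated SKOV3. The log2 differences were 2.64 (SE 0.24, adjusted p = 9.38e-08) for PAE in SKOV3 and 3.22 (SE 0.24, adjusted p = 5.01e-06) between the untreated lines. Removing the trend left -0.29 (SE 0.18, adjusted p = 0.182) and 0.52 (SE 0.20, adjusted p = 0.0452). SKOV3/DDP with PAE had 25.7, 26.8 and 32.5 CPM, all below the untreated SKOV3/DDP libraries, but the log2 value of -0.51 (SE 0.21, adjusted p = 0.0893) did not pass. It passed with the trend removed (-0.67, SE 0.16, adjusted p = 0.00657). Between the treated lines the difference of PMS1 was within its error (log2 0.13, SE 0.21, adjusted p = 0.641).

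ORMDL1, a regulator of sphingolipid synthesis read in the opposite direction, shares 198 bases with PMS1. Unlike PMS1 it rose with PAE in SKOV3/DDP (log2 0.91, SE 0.24, adjusted p = 0.0142), a call lost with the trend removed (0.61, adjusted p = 0.0702). The log2 ratio of PMS1 to PMS2 counts was -0.42 ± 0.22 (SD, n = 3) in SKOV3, 0.94 ± 0.42 with PAE, 0.53 ± 0.08 in SKOV3/DDP and -0.19 ± 0.10 with PAE. PAE thus went with a log2 change of this ratio of 1.36 in SKOV3 and of -0.71 in SKOV3/DDP, without overlap in either line (exact permutation p = 0.1 each, the smallest possible). The 2 genes differ in GC content (39.9% and 46.2%). After removal of the trend the change in SKOV3 was -0.033 (exact permutation p = 0.9) and the change in SKOV3/DDP -0.84 (exact permutation p = 0.1). Between the untreated lines the ratio was 0.95 higher in SKOV3/DDP, and -0.26 with the trend removed.

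MLH3 was the lowest member per length in both untreated lines and in SKOV3/DDP with PAE. It was at 3.02, 1.62 and 1.70 CPM in untreated SKOV3, from 34, 19 and 20 counts, and at 3.46, 5.24 and 5.39 CPM in untreated SKOV3/DDP. The gap between these groups was small, and its log2 value of 1.09 (SE 0.37, adjusted p = 0.0227) turned to -1.49 (SE 0.35, adjusted p = 0.00458) with the trend removed. The call on the deposited counts was lost without SKOV3 replicate 2 (0.93, adjusted p = 0.0663) or replicate 3 (0.95, adjusted p = 0.0802). PAE-treated SKOV3 had 22.7, 22.9 and 28.2 CPM, a rise of 3.54 in log2 (SE 0.32, adjusted p = 1.18e-07) and of 0.79 (SE 0.29, adjusted p = 0.0327) with the trend removed. SKOV3/DDP with PAE had only 6.08, 6.30 and 5.34 CPM. These overlapped untreated SKOV3/DDP (log2 0.33, SE 0.29, adjusted p = 0.429) and lay far below treated SKOV3 (log2 -2.06, SE 0.29, adjusted p = 3.27e-05, with the same value after the trend was removed). MLH3 and MSH6 were thus lower together in treated SKOV3/DDP.

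EXO1, the exonuclease, was at 4.97, 1.45 and 3.47 CPM in untreated SKOV3, from 56, 17 and 41 counts, and at 36.3, 24.8 and 39.3 CPM with PAE. The groups did not overlap, and the log2 rise was 3.34 (SE 0.38, adjusted p = 1.07e-06), or 1.09 (SE 0.28, adjusted p = 0.00565) with the trend removed. Untreated SKOV3/DDP had 11.995, 11.7 and 10.3 CPM, a log2 value of 1.72 (SE 0.41, adjusted p = 0.00366) above untreated SKOV3, which became -0.24 (SE 0.32, adjusted p = 0.522) with the trend removed. SKOV3/DDP with PAE had 21.8, 13.7 and 23.985 CPM. All 3 lay above the untreated SKOV3/DDP libraries and below the treated SKOV3 libraries. Neither difference passed on the deposited counts (log2 0.81, SE 0.34, adjusted p = 0.0934, and log2 -0.75, SE 0.34, adjusted p = 0.0705). Both passed narrowly with the trend removed (0.73, adjusted p = 0.0497, and -0.66, adjusted p = 0.0421), and the second also without SKOV3 with PAE replicate 2 (-0.94, adjusted p = 0.0458).

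The order of the members' levels, in CPM per kilobase, differed between the groups. In untreated SKOV3, MSH6 led at 4.93 ± 2.98 (SD, n = 3), followed by PMS2 at 1.01 ± 0.33, EXO1 at 0.86 ± 0.46 and PMS1 at 0.70 ± 0.11, which overlapped one another, and by MSH3 at 0.30 ± 0.09 and MLH3 at 0.27 ± 0.10, which also overlapped. PAE-treated SKOV3 had MSH6 at 30.7 ± 2.27 and EXO1 at 8.72 ± 1.99, both clear of the rest, then PMS1 at 4.37 ± 0.53, MSH3 at 4.35 ± 1.305 and MLH3 at 3.13 ± 0.40, each overlapping its neighbour, and PMS2 at 2.41 ± 0.40, just below. In untreated SKOV3/DDP the order began with PMS1 at 6.80 ± 1.08, MSH3 at 5.32 ± 0.56 and PMS2 at 5.01 ± 0.96, of which MSH3 and PMS2 overlapped. EXO1 at 2.95 ± 0.24 and MSH6 at 2.41 ± 0.96 followed, overlapping each other, and MLH3 was last at 0.60 ± 0.14. With PAE, the 5 members other than MLH3 lay between 3.33 ± 0.75 for MSH6 and 5.77 ± 1.08 for PMS2, each overlapping its neighbour, and MLH3 stayed apart at 0.75 ± 0.06. MSH6 was thus the highest member in both SKOV3 groups, and only MLH3 was lower than MSH6 in both SKOV3/DDP groups.

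A list of 21 other genes of the pathway (the clamp PCNA, its loader RFC, the single-strand binding protein RPA, polymerase delta, ligase LIG1, the meiotic MSH4 and MSH5 and accessory factors) was read beside the members. Between the untreated lines, 6 of 18 tested genes were higher in SKOV3/DDP and 7 lower, with RFC1 (log2 3.51, SE 0.32, adjusted p = 1.53e-05) and HMGB1 (2.97, SE 0.21) highest and the polymerase subunit POLD1 (-3.50, SE 0.21) and LIG1 (-3.33, SE 0.30) lowest. Of all genes tested, 46.1% were higher and 38.5% lower, and the list's median of 0.45 was close to the 0.41 of all genes. After removal of the trend 2 of the list were higher and 10 lower, beside 36.7% and 33.1% of all genes, and the list's median was -1.09. RFC1 was then at 1.22 (adjusted p = 0.000824), POLD1 at -1.44 (adjusted p = 0.000201) and LIG1 at -2.10 (adjusted p = 0.000256), while HMGB1, at -0.03 (adjusted p = 0.924), was no longer called. PAE in SKOV3 gave 11 higher and 6 lower of 19, led by RFC3 (log2 3.60, SE 0.31) and HMGB1 (3.22, SE 0.22) upwards and by POLD2 (-2.89, SE 0.20) and POLD4 (-2.41, SE 0.19) downwards. That list became 5 higher and 5 lower with the trend removed. The shares of all genes were 42.6% higher and 32.7% lower on the deposited counts, and 28.5% and 22% with the trend removed. Of the 4 genes just named, POLD2 was still called (-0.83, adjusted p = 0.000984), and RFC3 (0.38, adjusted p = 0.152), HMGB1 (-0.01, adjusted p = 0.976) and POLD4 (0.11, adjusted p = 0.585) were not.

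In SKOV3/DDP, PAE gave 1 higher and 3 lower of 19, beside 11.8% and 14.7% of all genes. The lower ones included POLD4 (log2 -2.02, SE 0.19, adjusted p = 2.64e-05) and RPA3 (-1.12, SE 0.25, adjusted p = 0.00584). The higher one was MSH4, a meiotic MutS homologue, with 82 counts over the treated SKOV3/DDP libraries, 8 untreated, 3 in PAE-treated SKOV3 and 0 in untreated SKOV3. Its level with PAE was 9.58 times that of untreated SKOV3/DDP (95% exact counting interval 4.64 to 22.9) and 25.1 times that of treated SKOV3 (8.28 to 124), intervals that cover counting error only. By the interaction term the list had 3 more positive and 10 more negative PAE effects in SKOV3/DDP, beside 25.5% and 37.4% of all genes. POLD2 (2.88, SE 0.28) and LIG1 (1.60, SE 0.41) stood at one end and HMGB1 (-3.67, SE 0.30) and RFC1 (-3.29, SE 0.42) at the other. The list's counts became 5 and 5 with the trend removed, beside 19.3% and 23% of all genes. POLD2 (1.05, adjusted p = 0.00285) and RFC1 (-0.91, adjusted p = 0.0179) were then still called, and LIG1 (0.48, adjusted p = 0.367) and HMGB1 (-0.63, adjusted p = 0.113) were not. When both lines had PAE, 1 gene was higher in SKOV3/DDP, MSH4, and 11 of 19 were lower, RFC2 (-2.35, SE 0.21, adjusted p = 2.55e-07) and POLD1 (-2.18, SE 0.23, adjusted p = 1.41e-06) the most, with the same counts after the trend was removed. The shares of all genes were 27.5% higher and 27.1% lower, and 30.6% and 29.3% with the trend removed.

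A list of 12 replication and proliferation genes (MKI67, TOP2A, MCM2 to MCM7, CCNE2, CDC6, E2F1 and RRM2) moved alongside MSH6 and MLH3 between the treated lines. In SKOV3/DDP 10 were lower and 0 higher, beside 27.1% and 27.5% of all genes, with a median log2 value of -2.49 against 0.06 for all genes and -0.37 for the members. Whether this difference has a part in that of MSH6 and MLH3 was not tested. PMS2, in the same contrast, was higher. Between the untreated lines the 12 genes divided into 6 higher and 5 lower, beside 46.1% and 38.5% of all genes. With the trend removed 0 were higher and 7 lower, beside 36.7% and 33.1%. PAE in SKOV3 gave 8 higher and 4 lower, beside 42.6% and 32.7% of all genes, and 3 and 0 with the trend removed, beside 28.5% and 22%. PAE in SKOV3/DDP gave 1 higher and 3 lower, beside 11.8% and 14.7% of all genes. The list's counts there were the same with the trend removed, beside 15.8% and 16.9%.

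**Figure D4:**
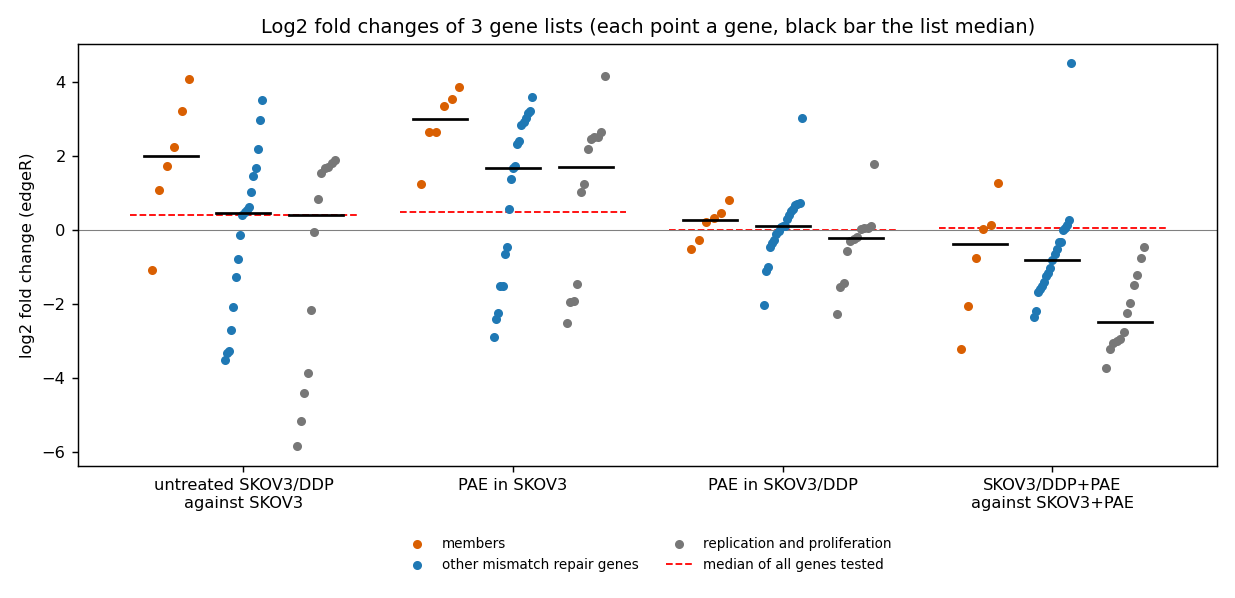
Log2 fold changes (vertical axis) of the 6 members, the other mismatch repair genes and the replication and proliferation genes in 4 comparisons on the deposited counts. Each point is a gene, black bars are list medians and the red dashed line is the median of all genes tested. In the last comparison the replication genes lie lowest, with a median of -2.49, and the members spread from -3.20 to 1.26.

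The genes whose pattern over the 12 libraries was nearest to each member's were found by the root-mean-square (RMS) difference in centred log2 CPM among 10171 protein-coding genes, a description of libraries that share groups and base composition. PMS1 had the closest, TOM1L1 (RMS 0.14) and CCT4 (0.15), against a median RMS of 1.28 over all genes. PMS2 was nearest to RHBDD1 (0.17) and XPO5 (0.19), and EXO1 to MTUS1 (0.19) and LCLAT1 (0.25). MSH3 was nearest to SMARCAD1 (0.21) and TBC1D15 (0.23), and MLH3 to DONSON (0.30) and INPP5F (0.33). MSH6 had the loosest matches, TNFAIP3 (0.42) and SGK1 (0.44). Among the members themselves, MSH3 and PMS1 were the most alike (RMS 0.51), MSH6 was nearest to MLH3 (0.92), and MSH6 and MSH3 were the least alike (2.16).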

How the data were processed

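Whole-number counts per gene were deposited by the authors for 12 libraries, without normalization, on GRCh38. Libraries were prepared from poly-A RNA with a NEBNext Ultra kit. The submitters' processing notes name HISAT2 2.0.5, StringTie 1.3.3b, DESeq2 and edgeR, with no role given, and the counting program and strand are not given in the sources used here. Unnamed loci (869 of 47219, 0.126% to 0.678% of counts) were left out.

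Genes were filtered with filterByExpr, scaled with TMM factors and tested by edgeR 4.0.16's quasi-likelihood test in R 4.3.3, with Benjamini-Hochberg adjustment over all genes at 0.05. The untreated lines were compared in a fit of 6 libraries (15323 genes), and all other contrasts in a fit of 12 (17133 genes). CPM are TMM-scaled in the latter, and marker sums use library totals. Standard errors are the log2 fold change over the square root of F. Ratios of counts were compared by exact permutation tests. GC content came from the longest GENCODE 29 transcript, and trends were splines with 5 degrees of freedom; 91.2% and 88.1% of tested genes had a value. Genes were named by rule: the 6 members, the 2 largest called changes of each sign in the list of 21, overlapping genes and copies with at least 1 CPM, and the 2 nearest genes of each member with mean log2 CPM of at least 2. DESeq2 1.42.0, limma 3.58.1, other scalings and filters, a replicate block and leaving out libraries were tried. The edgeR fits were tested on simulated counts with 200 changed genes and no GC trend, unlike these data. The trend removal, the count ratios and the promoter steps were not simulated. Promoter sequences came from RefSeq, which matched all 6 members. The members and lists were chosen with earlier results of these data known. A marker list as a whole and an overlapping gene are not reported here.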

Additional observations from a re-analysis of the deposited data

Results flagged for a closer look

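The effect of PAE differed between the lines for each of the 6 members by the interaction term of edgeR's fit, given as the log2 effect in SKOV3/DDP minus that in SKOV3. The difference was -4.13 for MSH3 (SE 0.43, adjusted p = 1.28e-06), the largest in size of the 6, and -2.17 for MSH6 (SE 0.53, adjusted p = 0.00211). It was -1.05 for PMS2 (SE 0.38, adjusted p = 0.024, and 0.0572 to 0.0636 without SKOV3 replicate 2 or 3, SKOV3 with PAE replicate 2, SKOV3/DDP replicate 2, or SKOV3/DDP with PAE replicate 1 or 2), -3.16 for PMS1 (SE 0.32, adjusted p = 9.53e-07) and -3.21 for MLH3 (SE 0.43, adjusted p = 1.17e-05). For EXO1 it was -2.53 (SE 0.50, adjusted p = 0.000388). The median of all genes was -0.62, and the difference of MSH3 was the one called once the GC and length trend was removed (-1.76, SE 0.38, adjusted p = 0.00232). The others were then 0.32 for MSH6, 0.42 for PMS2, -0.38 for PMS1, -0.55 for MLH3 and -0.37 for EXO1.

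The PMS1 to PMS2 ratio moved in opposite directions, with every PAE-treated library above every untreated one in SKOV3 (log2 change 1.36) and below in SKOV3/DDP (log2 change -0.71). The difference between these changes was not tested, and the change in SKOV3 was -0.033 with the trend removed.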

How the results depend on the processing

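Of 450 alternative values for single members' fold changes, 405 kept direction and side of the threshold, 11 turned direction, 20 became called and 14 lost the call. With the GC and length trend removed, direction turned for MLH3 (-1.49) and EXO1 (-0.24) between the untreated lines, for PMS2 (-0.25) and PMS1 (-0.29) with PAE in SKOV3, and for MSH6 (0.32) and PMS2 (0.42) in the interaction. The same setting gave 3 called members for PAE in SKOV3, 2 for PAE in SKOV3/DDP and 1 for the interaction, and PMS1 to PMS2 log2 ratio differences of -0.26 between the untreated lines, -0.033 for PAE in SKOV3 and -0.84 for PAE in SKOV3/DDP. For PAE in SKOV3/DDP, DESeq2, library size alone and no filter each called 1 member and a fit of the 6 SKOV3/DDP libraries called 2. Of all genes, DESeq2 called 5147 of 17133, library size alone 4802 of 17133 and no filter 4845 of 31557. The share in the fit of the 6 SKOV3/DDP libraries is not given. The study set limits of 0.05 for p and 2 for the size of the log2 change, and does not say whether p was adjusted. Applied here to edgeR's unadjusted p, these limits gave 3 members between the untreated lines. The share of all genes meeting them is not given, so this count cannot be set against a background. The main threshold, which uses adjusted p and no fold limit, called 46.1% of genes higher and 38.5% lower in that contrast, and is not a like measure. The near-zero difference of MSH3 between treated lines turned to -0.015 with library size alone, -0.0013 without a filter and -0.053 in a fit of the PAE libraries; the cause was not tested.

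Leaving out 1 library gave 4 to 6 called members between the untreated lines, 6 throughout for PAE in SKOV3, 0 for PAE in SKOV3/DDP, 5 to 6 for the interaction (PMS2 was lost) and 3 to 4 between treated lines, where MSH3 ran from -0.20 to 0.25. The shares of all genes called in these fits are not given, so these counts have no background beside them. MSH3 to MSH6 log2 ratio differences ran from 4.82 to 5.72 between the untreated lines, from 0.76 to 1.65 for PAE in SKOV3 and from -1.03 to -0.58 for PAE in SKOV3/DDP. Library size alone moved the median of all genes from 0.41 to 1.16 between the untreated lines and from 0.48 to 1.36 for PAE in SKOV3, with 9058 genes higher and 3834 lower against 7292 and 5603; in SKOV3/DDP it gave 2889 and 1913 against 2014 and 2512, and for the interaction 3088 and 7808 against 4374 and 6404. Members' calls kept their direction under it. For PAE in SKOV3 the counts of all genes called fell from 12895 to 7613, and for the interaction from 10778 to 6381, with the trend removed.

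A replicate block called 4 members between the untreated lines, 6 for PAE in SKOV3, 0 for PAE in SKOV3/DDP, 6 for the interaction and 4 between treated lines. Of all genes tested it called, in the same order, 12706 of 15323 and then 12701, 3997, 10527 and 8959 of 17133. Same-numbered libraries did not deviate together (correlations of -0.171 to 0.117), so the numbers were not taken as pairs. Depth limits MSH3 and MLH3 most, with 10 to 34 counts in untreated SKOV3, and EXO1 had 56, 17 and 41 counts there.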
